A study of Mus musculus with 12 samples.

Results

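The transcripts described here are those of the mitochondrial ribosomal proteins, taken as every row of the deposited expression table whose symbol is Mrpl or Mrps followed by a number and at most 1 letter from a to c. The rule gave 77 of the 24255 genes in the table, 48 with a large-subunit (Mrpl) and 29 with a small-subunit (Mrps) symbol, and it used no expression value. Transcripts were sequenced in 12 libraries of 20 fully grown oocytes each, at the germinal vesicle (GV) stage. The females were C57BL/6 mice of 3 weeks that had received 5 IU of PMSG, a gonadotropin that stimulates follicle growth, 46 h earlier. WT females gave 3 libraries (numbered 4 to 6 in the labels). MUT females, with 3 libraries (1 to 3), carry the D166G-Dpagt1 point mutation in every cell, a mutation that arose by chemical mutagenesis. GcKO females (Dpagt1F/F Gdf9CRE/+, 3 libraries, 1 to 3) lose the floxed Dpagt1 gene through a Cre recombinase driven in oocytes by the Gdf9 promoter. AmcKO females (Dpagt1F/F Amhr2CRE/+, 3 libraries, 4 to 6) lose it in granulosa cells, through a Cre driven by the Amhr2 promoter, so that their oocytes keep the gene. Dpagt1 encodes the enzyme that starts the synthesis of the lipid-linked sugar used for protein N-glycosylation.

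Mitochondria keep a small genome of their own, and the messages it encodes are translated inside the organelle by a dedicated ribosome that descends from the ribosome of bacteria. Its rRNAs come from the mitochondrial genome, whereas all of its proteins are encoded in the nucleus, made in the cytosol and imported. Its large subunit joins the amino acids and its small subunit reads the mRNA, and its products are core subunits of the oxidative phosphorylation complexes. The oocyte holds an exceptionally large number of mitochondria and passes them on to the embryo.

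The genes do not share a locus. All 77 were found in the GENCODE M21 annotation of GRCm38, on 17 chromosomes, with 10 genes on the chromosome that held most. RefSeq promoters of GRCm38.p6, from 250 bases before to 50 after the start of the gene, were matched by symbol for 68 of the 77. The promoters of 3 genes are shown because Mrpl35, Mrpl42 and Mrps33 carry much of the comparison between genotypes below. They are printed 5′ to 3′ in the direction of the gene, and capitals mark a match to CCGGAAG, the core bound by ETS-family factors, to GCGCA, any base and GCGC in a row, the palindrome bound by NRF1, to AAGATGGCG, the element bound by YY1, or to TATAAA, the TATA box, searched on both strands. Mrpl35 lies on the reverse strand of chromosome 6 (promoter chr6:71823735-71824034), Mrpl42 on the reverse strand of chromosome 10 (promoter chr10:95501900-95502199) and Mrps33 on the reverse strand of chromosome 6 (promoter chr6:39810887-39811186).
Mrpl35: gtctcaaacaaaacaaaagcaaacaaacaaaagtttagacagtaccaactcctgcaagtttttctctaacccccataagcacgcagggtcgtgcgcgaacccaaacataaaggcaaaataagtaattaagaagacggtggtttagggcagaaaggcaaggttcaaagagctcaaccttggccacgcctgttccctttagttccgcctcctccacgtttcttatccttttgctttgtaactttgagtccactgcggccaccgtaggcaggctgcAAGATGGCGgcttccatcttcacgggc
Mrpl42: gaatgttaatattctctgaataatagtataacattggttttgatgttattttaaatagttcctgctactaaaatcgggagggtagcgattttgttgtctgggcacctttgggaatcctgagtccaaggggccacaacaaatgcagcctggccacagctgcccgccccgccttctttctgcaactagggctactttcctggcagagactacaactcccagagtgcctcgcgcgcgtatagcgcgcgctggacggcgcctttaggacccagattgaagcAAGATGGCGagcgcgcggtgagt
Mrps33: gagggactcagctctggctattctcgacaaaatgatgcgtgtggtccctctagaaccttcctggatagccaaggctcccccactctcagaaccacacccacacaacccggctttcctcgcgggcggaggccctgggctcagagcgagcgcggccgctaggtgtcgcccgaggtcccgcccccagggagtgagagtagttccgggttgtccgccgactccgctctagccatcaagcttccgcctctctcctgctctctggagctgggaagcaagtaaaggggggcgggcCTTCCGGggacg
In Mrpl35 and in Mrpl42 the capitals are AAGATGGCG, starting at base 24 and base 28 after the gene start. In Mrps33 they are CCGGAAG on the opposite strand, starting at base 39. AAGATGGCG was found in 8 of the 68 promoters (11.8%), against 3.14% of the promoters of the transcripts tested and 1.49% of all promoters. CCGGAAG was found in 24 (35.3%, against 17.9% and 9.12%) and the NRF1 palindrome in 13 (19.1%, against 10.5% and 4.78%). TATAAA was found in 4 (5.88%, against 8.74% and 14.2%). The motif shares of members that were later called lower and of those that were not are close for AAGATGGCG, at 3 of 24 and 5 of 44, and for CCGGAAG, at 8 of 24 and 16 of 44, while the NRF1 palindrome was in 2 of 24 and 11 of 44. A match describes the letters only.

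The values are FPKM, the fragments of a transcript per kilobase of its length and of the fragments in its library. How many fragments a library held is not known from them, but the steps between low values give the FPKM of a single fragment relative to MUT replicate 2. It was 2.28 to 2.66 times as large in WT, 1.21 to 1.51 in AmcKO, 1.0 to 1.22 in MUT and 0.901 to 1.51 in GcKO, so that 1 fragment raised a value most in WT. This measure holds depth together with any scaling of values between libraries, so depth alone is not known from it. The part of depth in the results was not tested, and scarce transcripts and values of 0 in WT rest on the fewest fragments. In each library they summed to 1167360 to 1226000 in WT, 883256 to 1107920 in AmcKO, 589617 to 611597 in MUT and 482314 to 684212 in GcKO. MUT and GcKO libraries thus had about the same low sum, WT libraries the highest, and genes listed above 0 ran the other way, from 9359 to 9622 in WT, 10399 to 10921 in AmcKO, 11208 to 11467 in MUT and 10733 to 11608 in GcKO. Dpagt1, the targeted gene, was listed at 0 in every WT and AmcKO library, at 0.878, 0.408 and 0.985 FPKM in MUT and at 0, 0.366 and 0 FPKM in GcKO, so its values do not check the labels. All 14 oocyte markers were detected in every group, summing to 51202 to 56944 FPKM in WT, 40508 to 50835 in AmcKO, 22149 to 23262 in MUT and 19841 to 27845 in GcKO. The 12 granulosa cell markers summed to 108 to 152, 125 to 149, 125 to 130 and 101 to 146 FPKM in the same order, and Amh, Foxl2 and Amhr2 among them were listed at 0 in all 12 libraries. Serpine2 alone held most of these sums, at means of 111, 120, 104 and 106 FPKM in that order. The sums thus mostly describe 1 gene. Of the 8 granulosa markers tested in MUT, 4 had a negative fold change, among them Cyp19a1 at means of 17.4 FPKM in WT and 10.6 in MUT, and none was called lower. Inha, Gja1 and Hsd17b1 were called higher, at 0 in WT and means of 4.00, 3.30 and 1.93 FPKM in MUT. These 3 entered the test only through the other groups, so nothing is read from their calls. In GcKO none of the 8 was called, and the part of these markers in the results was not tested. AmcKO replicate 5, with 13904 FPKM summed over the 77 members, stood nearer to the WT libraries than AmcKO replicates 4 and 6, with 10852 and 9981. WT and AmcKO libraries carry the label numbers 4 to 6 and MUT and GcKO libraries 1 to 3, and genotype cannot be told apart from any batch that runs with them.

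All 77 transcripts passed the minimum for testing, which was 1 FPKM in any 1 of the 12 libraries. Mitochondrial ribosomal protein transcripts were abundant in these oocytes, with a median over the members of 55.9 FPKM, against 3.35 FPKM for all 11233 transcripts tested. A mean of at least 100 FPKM was reached by 28 of the 77, and 17 lay under 10 FPKM. The 5 most abundant were Mrps33, Mrpl14, Mrpl34, Mrps21 and Mrpl32, at means of 1065, 984, 826, 748 and 721 FPKM over the 12 libraries, and they made up 40.8% of the summed FPKM of all 77. Among these neighbours in the order, Mrps21 and Mrpl32 overlapped in each of the 4 groups. Every value of Mrps33 lay above those of Mrpl14 in WT, and every one lay below them in MUT. At the other end, Mrps18c was listed at 0 in 11 libraries and at 2.71 FPKM in GcKO replicate 1, and Mrps34 was listed at 0 in 10, with 2.18 FPKM in MUT replicate 2 and 1.54 FPKM in AmcKO replicate 5. Mrpl39, Mrpl19 and Mrpl37 were also listed at 0 in at least 1 library, and a value of 0 in such a table can be a failed estimate.

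**Figure D1:**
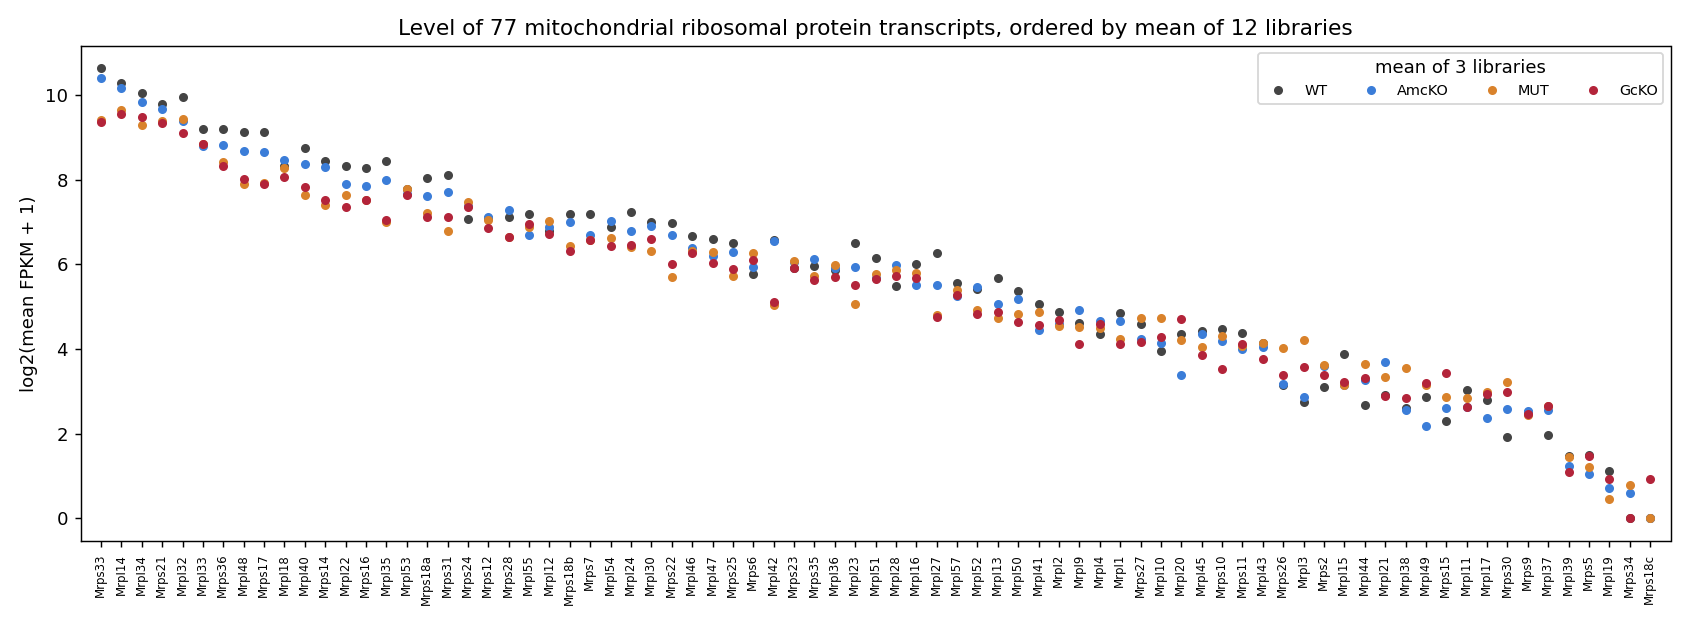
Level of each of the 77 transcripts as log2 of the group mean FPKM plus 1, 1 point per group of 3 libraries, ordered by the mean of the 12 libraries. From Mrps33 at 1065 FPKM the levels fall without a gap to a few transcripts near 0, and among the abundant transcripts on the left the MUT and GcKO points mostly lie under the WT points.

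Added over the 77 transcripts, the libraries held 13312 to 14600 FPKM in WT, 9981 to 13904 in AmcKO, 8696 to 8932 in MUT and 7201 to 9612 in GcKO. Every MUT and GcKO library lay below every WT and AmcKO library. As a share of the library's FPKM the order turned, with 1.09 to 1.19% in WT, 1.12 to 1.25% in AmcKO, 1.42 to 1.48% in MUT and 1.38 to 1.49% in GcKO, and the MUT and GcKO libraries lay above all others. The direction of a change in these transcripts therefore rests on whether FPKM is read as deposited or relative to the library's sum, and both readings are given below. Every library was made from the same number of oocytes, and FPKM does not give the amount of RNA per oocyte. For any other cells carried along in these bulk samples, fewer cells and less RNA per cell cannot be told apart. The ratio of large-subunit to small-subunit FPKM was 1.31 ± 0.0122 (SD, n = 3) in WT, 1.28 ± 0.0791 (SD, n = 3) in AmcKO, 1.49 ± 0.0443 (SD, n = 3) in MUT and 1.47 ± 0.0426 (SD, n = 3) in GcKO, with no overlap between WT or AmcKO and MUT or GcKO. The gap rested on 1 transcript, Mrps33. Without it the ratio was 1.76 to 1.82 in WT, 1.65 to 1.83 in AmcKO, 1.77 to 1.90 in MUT and 1.74 to 1.85 in GcKO, and all groups overlapped.

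**Figure D2:**
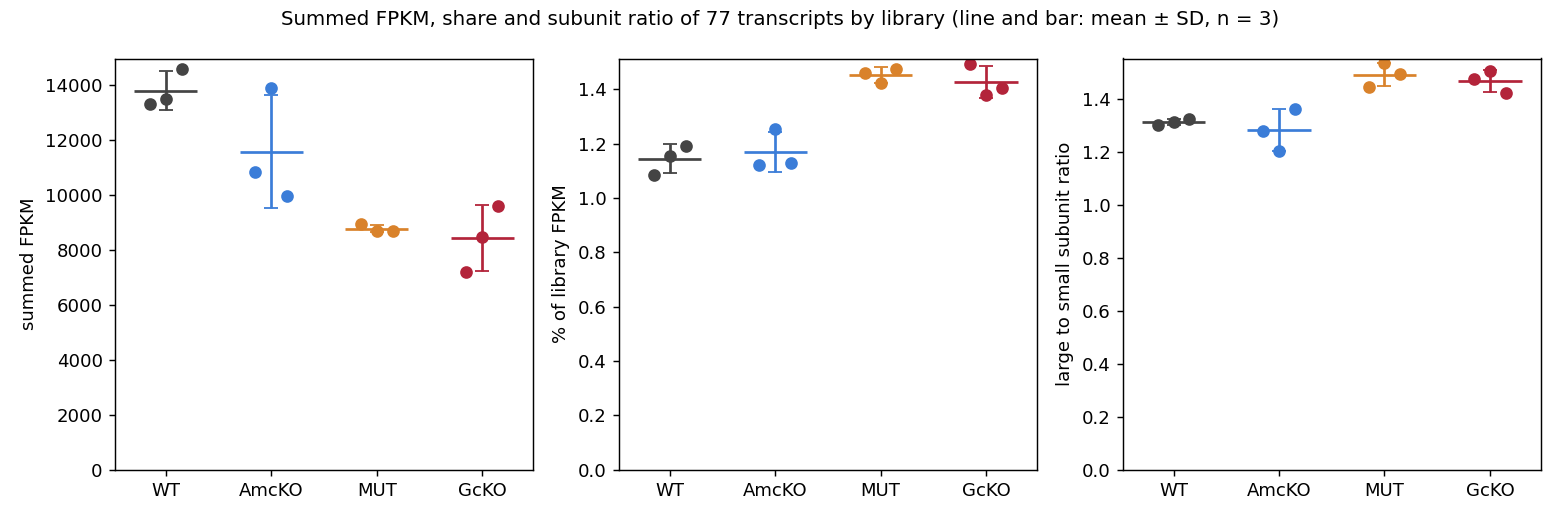
Summed FPKM of the 77 transcripts, their share of the library's FPKM in percent, and the ratio of large-subunit to small-subunit FPKM, 1 point per library, with mean and SD of 3 libraries. MUT and GcKO sit below WT and AmcKO in the sum (7201 to 9612 against 9981 to 14600 FPKM) and above them in the share (1.38 to 1.49% against 1.09 to 1.25%).

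In MUT oocytes, the transcripts that were lower came from both subunits, and they were led by Mrpl42, Mrpl27, Mrpl35, Mrpl23, Mrps31 and Mrps22, with log2 fold changes on the FPKM + 1 scale between -1.54 and -1.26. By limma at a Benjamini-Hochberg adjusted p under 0.05, the threshold for every call here, 21 of the 77 were called lower and 3 higher than in WT, where 11.3% of all transcripts tested were called lower and 9.46% higher. The median log2 fold change of the 77 was -0.26, against 0.12 for all transcripts. The 3 MUT values lay under all 3 WT values for 29 of the 77 (16.9% of all transcripts) and over them for 6 (20.2%). Of the 48 large-subunit transcripts 11 were lower and 2 higher, and of the 29 small-subunit transcripts 10 were lower and 1 higher. When all libraries were given the same FPKM sum, the split turned to 1 lower and 38 higher, where 2.25% of all transcripts were lower and 41.3% higher, and the median of the 77 became 0.66 beside 0.70 for all transcripts. After quantile normalization, which gives all libraries the same distribution of values, it was 5 lower and 9 higher (6.34% and 6.87% of all transcripts), with a median of 0.03. Median-of-ratios scaling, which uses the genes above 0 in all libraries, gave 21 lower and 3 higher (1297 and 1051 of all transcripts), with a median of -0.27. At a mean of at least 5 FPKM, which left 70 members and 4759 transcripts, 27 members were lower and 5 higher (28.6% and 16% of all transcripts), and the medians were -0.29 and -0.12. With a correction for transcript length, 20 were lower and 6 higher (11.8% and 6.25%), with medians of -0.11 and 0.03, so that both settings brought the members' median nearer to that of all transcripts. Without MUT replicate 2, 15 were called lower and 0 higher as deposited (8.56% and 4.85% of all transcripts).

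**Figure D3:**
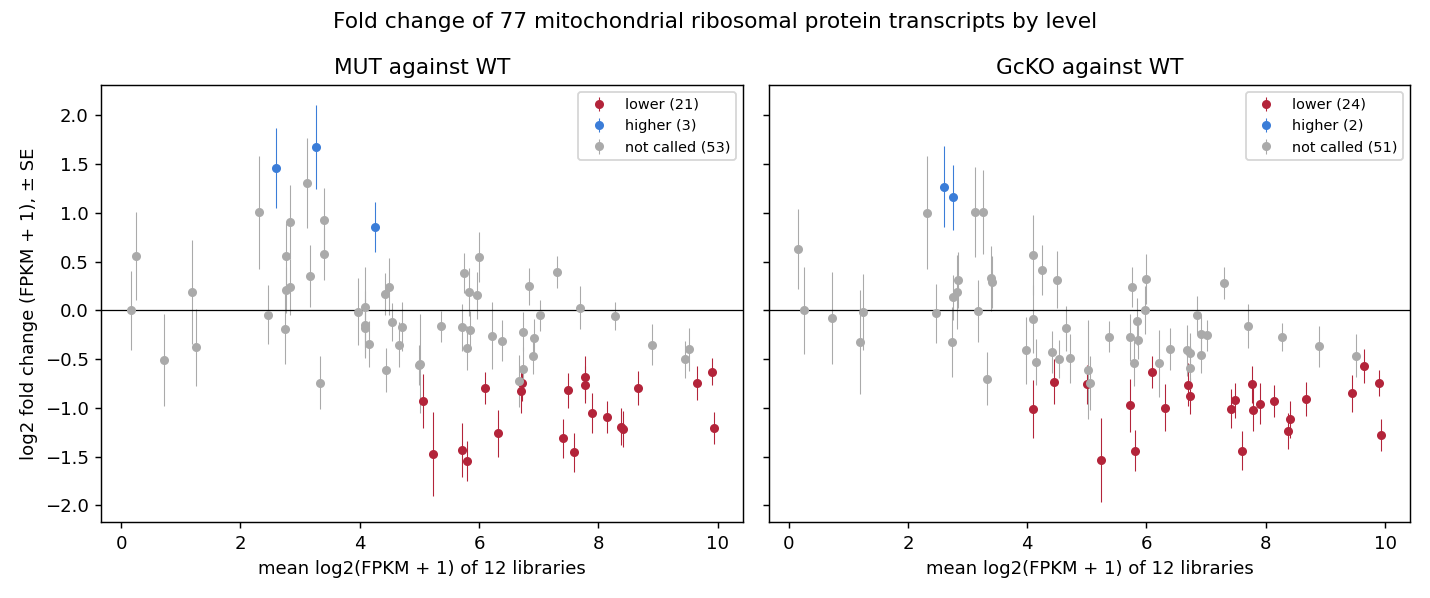
Log2 fold change on the FPKM + 1 scale (vertical, with standard error) against the mean log2(FPKM + 1) of the 12 libraries (horizontal), 1 point per transcript, for MUT (left) and GcKO (right) against WT. Points called lower lie mostly to the right, at higher levels, and the few called higher lie towards the left.

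Mrpl35, a protein with a bacterial counterpart, was at 343, 339 and 361 FPKM in WT and at 143, 122 and 116 FPKM in MUT. The MUT values lay far under the WT values, and the log2 fold change was -1.45 ± 0.20 (SE, adjusted p = 0.0003 by limma). It was the 1 member called lower in MUT also when libraries were scaled to the same sum. Mrpl42, a large-subunit protein particular to mitochondria, was at 89.6, 74.8 and 119 FPKM in WT and 25.4, 38.4 and 31.1 FPKM in MUT. Its groups did not overlap, the highest MUT value standing well under the lowest WT value, and its log2 fold change was -1.54 ± 0.21 (SE, adjusted p = 0.00025 by limma). Mrpl23, a protein near the exit of the peptide tunnel, was at 69.2, 78.0 and 122 FPKM in WT and 30.0, 24.8 and 42.5 FPKM in MUT. All 3 MUT values were lower, with a log2 fold change of -1.43 ± 0.27 (SE, adjusted p = 0.00236 by limma). Mrpl27, whose bacterial counterpart lies at the peptidyl transferase centre, was at 84.4, 83.9 and 61.5 FPKM in WT and 31.4, 24.0 and 25.0 FPKM in MUT. The groups did not overlap, and the log2 fold change was -1.47 ± 0.43 (SE, adjusted p = 0.027 by limma), but the call was lost on leaving out any 1 of the 6 WT and MUT libraries (limma's adjusted p from 0.0623 to 0.115). Mrpl42, Mrpl23, Mrps31 and Mrps22 were called lower after quantile normalization too, and not under the same-sum scaling.

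On the small subunit, Mrps31, a protein particular to mitochondria, was at 304, 231 and 289 FPKM in WT and 116, 112 and 101 FPKM in MUT. Every MUT value was under every WT value, with a log2 fold change of -1.31 ± 0.20 (SE, adjusted p = 0.00059 by limma). Mrps22, also particular to mitochondria and known from human ovarian insufficiency when mutated, was at 100.2, 117 and 157 FPKM in WT and 49.3, 43.3 and 60.7 FPKM in MUT. The groups did not overlap, and the log2 fold change was -1.26 ± 0.24 (SE, adjusted p = 0.00251 by limma). Mrps33, the most abundant of all members, was at 1521, 1511 and 1703 FPKM in WT and 664, 660.4 and 727 FPKM in MUT. The MUT values were tightly grouped and far under those of WT, with a log2 fold change of -1.20 ± 0.17 (SE, adjusted p = 0.0003 by limma), and Mrps33 was called neither under the same-sum scaling nor after quantile normalization.

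The members called higher in MUT were Mrpl3, Mrps30 and Mrpl10, with means of 10.1, 5.75 and 18.8 FPKM over the 12 libraries. Mrpl3, a core large-subunit protein, was at 7.39, 1.39 and 8.35 FPKM in WT and 14.2, 19.6 and 18.5 FPKM in MUT. All MUT values were higher, with a log2 fold change of 1.68 ± 0.43 (SE, adjusted p = 0.0146 by limma), and the call was lost without MUT replicate 2 or 3 (limma's adjusted p over the fits with 1 library left out from 0.0166 to 0.0744). Mrps30, which despite its symbol is placed in the large subunit in structures of the ribosome, was at 5.91, 1.34 and 1.14 FPKM in WT and 4.91, 9.64 and 10.4 FPKM in MUT. WT replicate 4 overlapped the MUT values, and the log2 fold change of 1.46 ± 0.41 (SE, adjusted p = 0.0228 by limma) fell short when WT replicate 5 or 6 or MUT replicate 2 or 3 was left out (limma's adjusted p from 0.00404 to 0.112). Mrpl10, the base of the flexible stalk of the large subunit, was at 21.0, 13.7 and 8.56 FPKM in WT and 22.4, 28.4 and 25.7 FPKM in MUT. MUT replicate 1 was only slightly over WT replicate 4, and the log2 fold change was 0.86 ± 0.25 (SE, adjusted p = 0.029 by limma). Its call was lost without any 1 of WT replicates 5 and 6 and the 3 MUT replicates (limma's adjusted p from 0.00615 to 0.103).

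**Figure D4:**
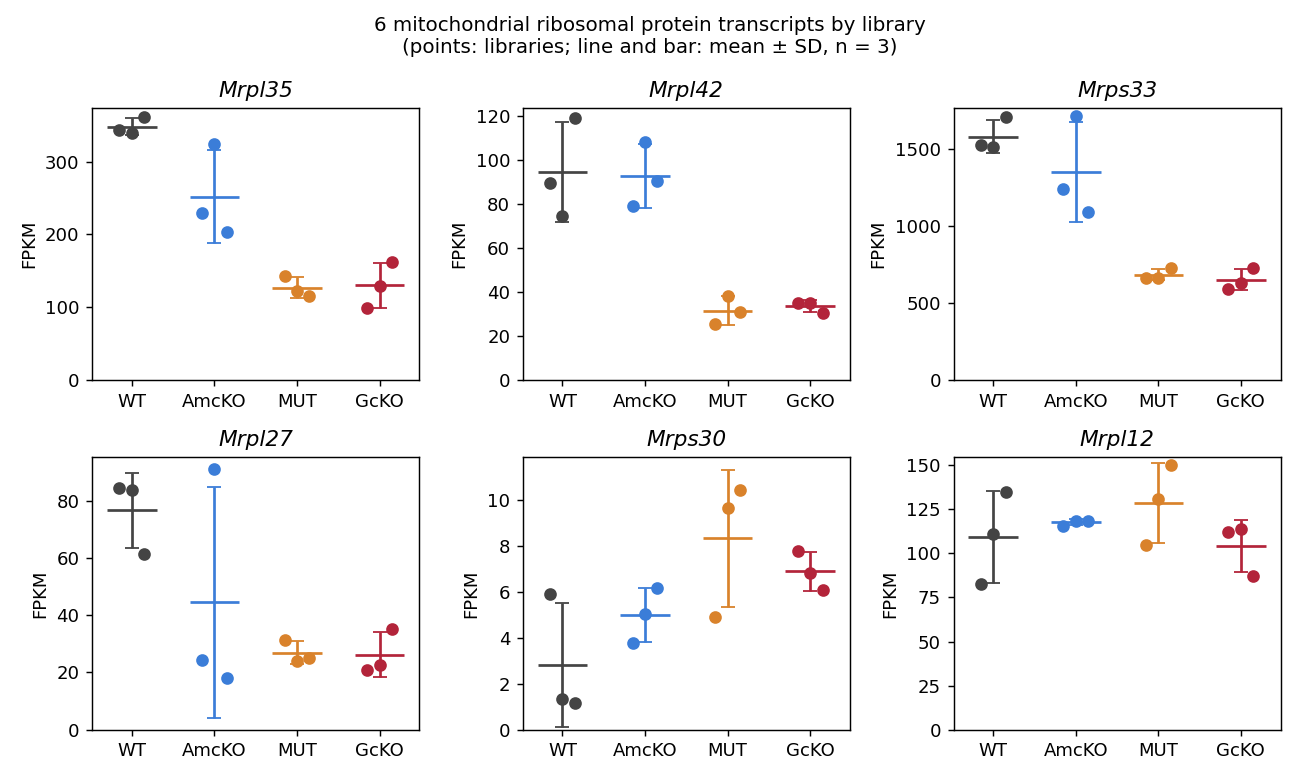
FPKM of Mrpl35, Mrpl42, Mrps33, Mrpl27, Mrps30 and Mrpl12 in each library (points), with mean and SD of 3 libraries, by group. Mrpl35, Mrpl42 and Mrps33 are low in every MUT and GcKO library, Mrpl27 is at 90.9 FPKM in AmcKO replicate 5 and under 25 FPKM in the other AmcKO libraries, Mrps30 lies at or under 10.4 FPKM in every library, and the groups of Mrpl12 overlap.

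In GcKO oocytes, which share the 3 WT libraries as their control, the largest falls were in Mrpl27, Mrpl42, Mrpl35, Mrps33, Mrps17 and Mrpl48. By limma, 24 of the 77 were called lower and 2 higher, where 11.4% of all transcripts were called lower and 8.71% higher. The median of the 77 was -0.41 on the log2 scale, against 0.12 for all transcripts. Values did not overlap with WT, and were lower, for 32 members (16% of all transcripts), and higher for 3 (18.2%). Of the large-subunit transcripts 13 were lower and 0 higher, and of the small-subunit transcripts 11 were lower and 2 higher. Under the same-sum scaling the split was 1 lower and 36 higher, where 2.15% of all transcripts were lower and 42.5% higher, with a median of 0.56 beside 0.73 for all transcripts, and after quantile normalization it was 2 lower and 3 higher (5.88% and 6.26%). Median-of-ratios scaling gave 24 lower and 2 higher (1302 and 969 of all transcripts), with a median of -0.41. At a mean of at least 5 FPKM, 27 of 70 members were lower and 2 higher (29.4% and 14.8%), with medians of -0.44 for the members and -0.16 for all transcripts. With the length correction, 22 were lower and 2 higher (11.7% and 5.37%), with medians of -0.29 and 0.04. Without GcKO replicate 1, 16 were lower and 0 higher as deposited (8.38% and 3.64% of all transcripts).

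In GcKO, Mrpl35 was at 99.7, 129 and 162 FPKM, a log2 fold change against WT of -1.44 ± 0.20 (SE, adjusted p = 0.00031 by limma). It was again the 1 member called lower under the same-sum scaling, and Mrpl35 and Mrpl42 were the 2 called lower after quantile normalization. Mrpl42 was at 35.3, 35.1 and 30.6 FPKM, close together and all under the WT values, with a log2 fold change of -1.44 ± 0.21 (SE, adjusted p = 0.00038 by limma). Mrps33 was at 593, 632 and 729 FPKM, with a log2 fold change of -1.28 ± 0.17 (SE, adjusted p = 0.00022 by limma). Its highest GcKO value was below the lowest WT value by a factor of more than 2. Mrps17, a small-subunit protein with a bacterial counterpart, went from 539, 596 and 524 FPKM in WT to 207, 218 and 282 FPKM in GcKO. The groups stood apart, and the log2 fold change was -1.24 ± 0.19 (SE, adjusted p = 0.00054 by limma) (in MUT, at 237, 243 and 244 FPKM, it was -1.19). Mrpl48, a large-subunit protein particular to mitochondria, went from 513, 591 and 559 FPKM to 234, 239 and 295 FPKM. All GcKO values were lower, with a log2 fold change of -1.12 ± 0.19 (SE, adjusted p = 0.00104 by limma). Mrpl27 was at 20.8, 22.4 and 35.3 FPKM, under all WT values, with a log2 fold change of -1.54 ± 0.43 (SE, adjusted p = 0.0222 by limma), a call lost when any 1 of the WT libraries or GcKO replicate 1 or 2 was left out (limma's adjusted p from 0.0356 to 0.113).

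The members called higher in GcKO were Mrps30 and Mrps15, with means of 5.75 and 6.29 FPKM over the 12 libraries. Mrps30 was at 7.77, 6.83 and 6.07 FPKM, just over WT replicate 4, with a log2 fold change of 1.27 ± 0.41 (SE, adjusted p = 0.0433 by limma) that was lost without WT replicate 5 or 6 or any GcKO replicate (limma's adjusted p from 0.00577 to 0.16). Mrps15, which binds the small-subunit rRNA early in assembly in bacteria, was at 4.63, 2.62 and 4.46 FPKM in WT and 9.53, 8.09 and 12 FPKM in GcKO. The groups did not overlap, and the log2 fold change of 1.16 ± 0.33 (SE, adjusted p = 0.0247 by limma) fell short when WT replicate 5 or GcKO replicate 1 or 3 was left out (limma's adjusted p from 0.0435 to 0.0923).

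Among the 5 most abundant members, Mrpl14, which has a bacterial counterpart at the subunit interface, was at 1270.2, 1244 and 1214 FPKM in WT, 788, 848 and 774 FPKM in MUT and 691, 768 and 768 FPKM in GcKO. Both sets of values lay under WT, with log2 fold changes of -0.63 ± 0.14 (SE, adjusted p = 0.00566 by limma) in MUT and -0.74 ± 0.14 (SE, adjusted p = 0.00198 by limma) in GcKO. Mrpl34 was at 1082, 1066 and 1005 FPKM in WT, 603, 703 and 584 FPKM in MUT and 584, 687 and 876 FPKM in GcKO, with log2 fold changes of -0.74 (adjusted p = 0.00825 by limma) and -0.57 (adjusted p = 0.0309 by limma). No MUT or GcKO value reached the WT range, and the call in GcKO was lost without any 1 WT library or GcKO replicate 1 or 2 (limma's adjusted p from 0.0097 to 0.114). Mrpl32, which the mitochondrial m-AAA protease trims before assembly, had log2 fold changes of -0.50 (adjusted p = 0.0798 by limma) in MUT and -0.85 (adjusted p = 0.00664 by limma) in GcKO, from 981 ± 167 FPKM (SD, n = 3) in WT to 689 ± 78.5 and 552 ± 139 FPKM (SD, n = 3). Mrps21 passed the threshold in neither group, with 877 ± 117 FPKM (SD, n = 3) in WT, 663 ± 46.3 in MUT and 640.4 ± 134 in GcKO, with log2 fold changes of -0.40 (adjusted p = 0.223 by limma) and -0.47 (adjusted p = 0.153 by limma). These 4 transcripts had a positive fold change against WT under the same-sum scaling and after quantile normalization.

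The Mrps18 paralogs, which arose from 1 ancestral protein and occupy different places in the ribosome, differed widely in level. Mrps18a was at 263 ± 46.1 FPKM (SD, n = 3) in WT, 147 ± 3.05 FPKM in MUT and 139 ± 29.1 FPKM in GcKO, with log2 fold changes of -0.82 (adjusted p = 0.0051 by limma) and -0.92 (adjusted p = 0.00248 by limma). Mrps18b was at 144 ± 12.4 FPKM (SD, n = 3) in WT, 86.0 ± 12.9 FPKM in MUT and 79.1 ± 18.2 FPKM in GcKO, with log2 fold changes of -0.75 (adjusted p = 0.0108 by limma) and -0.88 (adjusted p = 0.00413 by limma). Mrps18c, as given above, was nearly always listed at 0, so the 2 detected paralogs were both called lower, although the call of Mrps18b in MUT was lost without MUT replicate 2 or 3 (limma's adjusted p from 0.0147 to 0.0513). Mrps36, a symbol that now denotes a subunit of the alpha-ketoglutarate dehydrogenase complex, was at 596, 546 and 622 FPKM in WT, 346, 346 and 322 FPKM in MUT and 238, 345 and 369 FPKM in GcKO. It was lower in both, with log2 fold changes of -0.80 (adjusted p = 0.00538 by limma) and -0.91 (adjusted p = 0.00233 by limma). Under the same-sum scaling the fold changes of Mrps18a, Mrps18b and Mrps36 were positive. Mrpl12, the stalk protein of the large subunit, was at 82.5, 111 and 135 FPKM in WT, 105, 131 and 149.9 FPKM in MUT and 112, 114 and 87.4 FPKM in GcKO. The 3 groups overlapped, and its log2 fold changes were 0.25 (adjusted p = 0.398 by limma) and -0.05 (adjusted p = 0.904 by limma). Mrps18a and Mrps30 were moved to the large subunit and Mrps36 was left out in a further ratio of large-subunit to small-subunit FPKM, which was 1.56 to 1.61 in WT, 1.40 to 1.65 in AmcKO, 1.72 to 1.85 in MUT and 1.70 to 1.81 in GcKO. This ratio still included Mrps33, on which the gap in the first ratio rested.

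The share of members called lower rose with their level. No member under 10 FPKM was called lower in MUT (0 of 17, against 1.97% of all transcripts at that level). From 10 to 50 FPKM it was 2 of 19 members (15.6% of all), from 50 to 100 FPKM 4 of 13 (40.2%), from 100 to 300 FPKM 9 of 18 (56.2%) and at 300 FPKM or more 6 of 10 (82.2%). In each of these bands the share of members called lower, 0, 10.5, 30.8, 50 and 60%, was under that of all transcripts of the same level. In GcKO it was 0 of 17 (1.82%), 4 of 19 (15.7%), 4 of 13 (40.4%), 9 of 18 (57.4%) and 7 of 10 (86.9%), so that the band from 10 to 50 FPKM alone held a larger share of members (21.1%) than of all transcripts. The median log2 fold change of members at 300 FPKM or more was -0.69 in MUT and -0.80 in GcKO, against -1.02 and -1.04 for all transcripts there. Over the 77 members, the log2 fold change and the mean level had a Spearman rho of -0.582 in MUT and -0.603 in GcKO (Pearson r -0.543 and -0.584), as a description across genes that share the same libraries. Over all 11233 transcripts it was -0.229 and -0.246 (Pearson r -0.35 and -0.376). With transcript length the rho was 0.0518 and 0.0569 over the members and 0.242 and 0.296 over all transcripts with a length.

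**Figure D5:**
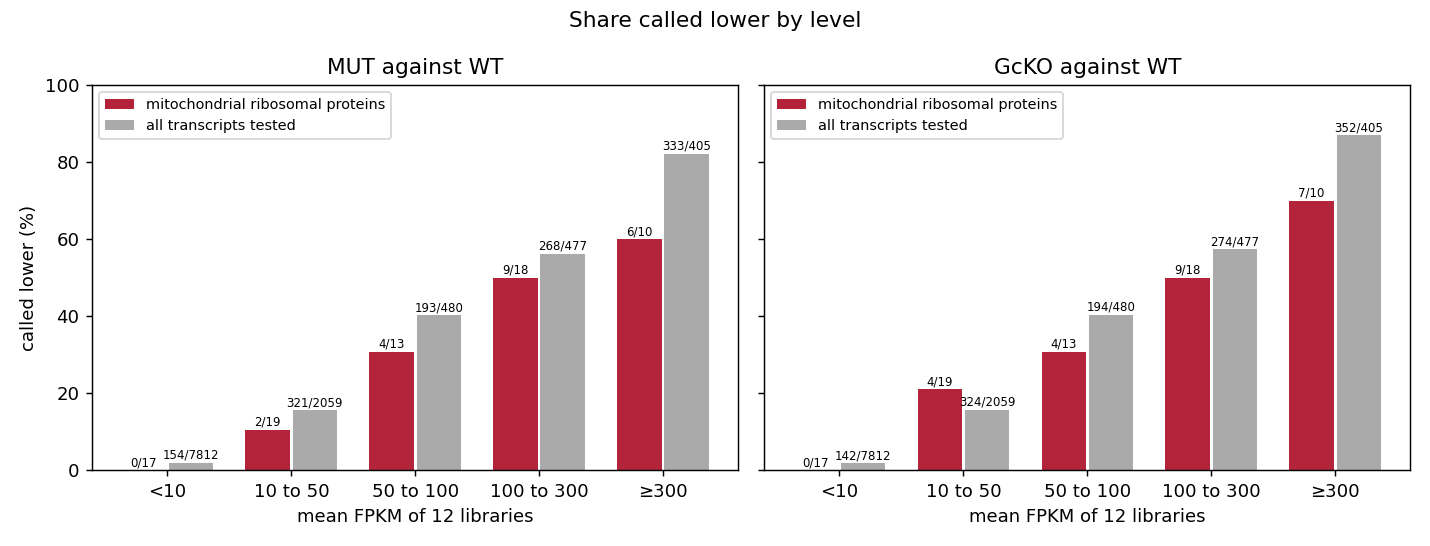
Percent of transcripts called lower by limma in MUT (left) and GcKO (right) against WT, within bands of the mean FPKM of the 12 libraries, for the mitochondrial ribosomal proteins (red) and all transcripts tested (grey), with the numbers called and tested over each bar. The share rises with level in both sets, to 6 of 10 and 7 of 10 members and to 82.2 and 86.9% of all transcripts in the highest band.

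Oocytes from females that lack Dpagt1 in granulosa cells showed no called member against WT. In AmcKO, 0 of the 77 passed limma's adjusted threshold, where 0.116% of all transcripts were called lower and 0.0979% higher, and 17 members had an unadjusted p under 0.05 (15.6% of all transcripts). The values of 12 members lay under the WT range (8.61% of all transcripts) and those of 2 over it (9.22%), and the median log2 fold change was -0.20, against 0.03 for all transcripts. Without AmcKO replicate 5, Mrpl27 was the 1 member called lower (0.427% of all transcripts), with a log2 fold change of -1.80 ± 0.25 (SE, adjusted p = 0.0161 by limma). Mrpl27 was at 24.3, 90.9 and 18.1 FPKM in AmcKO, so replicates 4 and 6 lay under all WT values and replicate 5 lay above them.

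GcKO and MUT libraries were also set against AmcKO, in which the oocyte keeps Dpagt1. In GcKO, 8 of the 77 were lower than in AmcKO and 0 higher, where 4.79% of all transcripts were lower and 0.668% higher. In MUT, 10 were lower and 0 higher, where 5.07% were lower and 1.42% higher. Values lay under the AmcKO range for 23 members in GcKO and 21 in MUT (11.6% and 14.4% of all transcripts), and over it for 4 and 9 (12% and 14%). Both comparisons use the 3 AmcKO libraries. Mrpl42 was at 79.3, 108 and 90.6 FPKM in AmcKO, above all MUT and GcKO values, and its log2 fold change was -1.43 ± 0.21 (SE, adjusted p = 0.00188 by limma) in GcKO and -1.53 ± 0.21 (SE, adjusted p = 0.001 by limma) in MUT. It was the 1 member lower in each of these comparisons under the same-sum scaling, where 22 members were higher in GcKO and 28 in MUT (22.1% and 21.4% of all transcripts, with 1.14% and 1.47% lower). Mrps33 was at 1238, 1709 and 1088 FPKM in AmcKO, again above all GcKO values, with a log2 fold change of -1.02 ± 0.17 (SE, adjusted p = 0.00326 by limma) in GcKO. Mrpl35 was at 229, 324 and 203 FPKM in AmcKO and had log2 fold changes of -0.95 (adjusted p = 0.0141 by limma) in GcKO and -0.96 (adjusted p = 0.0113 by limma) in MUT. The groups did not overlap, yet its call was lost in GcKO without GcKO replicate 1 or 2 or AmcKO replicate 4 or 5 (limma's adjusted p from 0.0081 to 0.0664) and in MUT without MUT replicate 2 or 3 or AmcKO replicate 5 (from 0.0147 to 0.0724). Mrps22 was at 97.3, 120.4 and 87.7 FPKM in AmcKO, above all MUT values, with a log2 fold change of -0.98 (adjusted p = 0.0265 by limma), and it was called only in the fit without AmcKO replicate 6 among the 6 that left out 1 library (from 0.0481 to 0.133). The count of members lower in GcKO was 3 without GcKO replicate 1 or 2 or AmcKO replicate 4 (2.38%, 2.79% and 2.04% of all transcripts), 2 without AmcKO replicate 5 (2.26%) and 11 without GcKO replicate 3 (5.82%). In MUT it was 5 without MUT replicate 1 (2.7%), 2 without MUT replicate 2 or 3 or AmcKO replicate 5 (2.21%, 2.23% and 2.5%) and 4 without AmcKO replicate 4 (2.75%). The share of all transcripts called fell or rose along with the members' count in each of these fits. Without AmcKO replicate 6 it did not, with 8 members lower in GcKO and 12 in MUT. All transcripts lower were then 459 and 516, against 538 and 570 with all libraries.

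Between GcKO and MUT oocytes, no member was called by limma (0 of 77, where 0.134% of all transcripts were lower and 0.0712% higher), and 2 had an unadjusted p under 0.05 (6.6% of all transcripts). The log2 fold changes of the 77 ran from -0.83 to 0.63, with a median of -0.10.

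Other parts of mitochondrial translation were looked up from lists of symbols. Of 6 mitochondrial ribosomal proteins that carry other symbols, 1 was lower and 0 higher in MUT, and 1 was lower and 1 higher in GcKO. Among all transcripts tested, 11.3% were lower and 9.46% higher in MUT, and 11.4% and 8.71% in GcKO. The lower one was Ict1, a peptidyl-tRNA hydrolase built into the large subunit, at 210.0, 245 and 236 FPKM in WT, 127, 135 and 116 FPKM in MUT and 114, 128 and 152 FPKM in GcKO. Its values in MUT and GcKO were all under WT, with log2 fold changes of -0.86 (adjusted p = 0.00396 by limma) and -0.81 (adjusted p = 0.00564 by limma). The higher one was Ptcd3, a small-subunit protein, with 0.88 (adjusted p = 0.0267 by limma) in GcKO, at a mean of 1.82 FPKM in WT and 4.16 FPKM in GcKO.

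For the factors that assemble the ribosome and modify its rRNA, 27 symbols were looked up, some of them older names of the same gene. Of these, 24 were found and 20 tested, and 1 was lower and 3 higher in MUT as in GcKO. Shares of all transcripts, for each list here, were 11.3% lower and 9.46% higher in MUT, and 11.4% and 8.71% in GcKO. Mterf4, which brings an rRNA methyltransferase to the large subunit, was the lower one, at 96.6 ± 14.7 FPKM (SD, n = 3) in WT, with log2 fold changes of -0.81 (adjusted p = 0.00612 by limma) in MUT and -0.96 (adjusted p = 0.00207 by limma) in GcKO. Of the 3 higher in MUT, Ngrn was at 22.3, 16.8 and 18.7 FPKM in WT and 25.4, 29.5 and 42.4 in MUT, whereas it was not called in GcKO. The others were Noa1, a GTPase, and Dhx30, an RNA helicase, which with Mtg2 made up the 3 in GcKO. Noa1 and Mtg2 were listed at 0 in every WT library and Dhx30 at 0.440, 0 and 0 FPKM, so they entered the test only through the other groups and nothing is read from their calls. Of the 1063 transcripts called higher in MUT, 209 (19.7%) had no WT library at 1 FPKM, and in GcKO it was 178 of 978 (18.2%), but none of the mitochondrial ribosomal proteins called higher was among them. Of 11 translation factors tested, Gfm2, which splits the ribosome after termination, was the 1 called, and higher, with 1.68 (adjusted p = 0.00419 by limma) in MUT and 1.23 (adjusted p = 0.0232 by limma) in GcKO. Gfm2 was scarce in WT, where 1 fragment raised a value most, at 1.11, 0 and 1.08 FPKM. Its means were 4.34 FPKM in MUT and 2.85 FPKM in GcKO. Of 9 tested proteins of mitochondrial transcription, mRNA handling and membrane insertion, 1 was lower and 2 were higher in each. Mtpap, the mitochondrial poly(A) polymerase, had -0.67 (adjusted p = 0.0417 by limma) in MUT and -0.75 (adjusted p = 0.0251 by limma) in GcKO, and Supv3l1, an RNA helicase, had 1.33 (adjusted p = 0.034 by limma) and 1.5 (adjusted p = 0.0189 by limma). Supv3l1 was also scarce in WT, at 0.734, 0 and 2.85 FPKM, with means of 3.76 FPKM in MUT and 4.42 FPKM in GcKO. The other one called higher, Pnpt1, an exoribonuclease, was listed at 0 in WT and entered the test only through the other groups. The 13 mRNAs of the mitochondrial genome were looked up too, but none was listed under the symbols used, so they were not analysed here.

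The cytosolic ribosomal proteins, the counterpart outside the mitochondria, were also in part lower. Of 73 tested, 20 were lower and 3 higher in MUT (1 of the 3 under 1 FPKM in every WT library), with a median of -0.27 on the log2 scale, and 22 were lower and 1 higher in GcKO, with a median of -0.29. For all transcripts it was 11.3% lower and 9.46% higher in MUT and 11.4% and 8.71% in GcKO, with a median of 0.12 in each. Their share of the library's FPKM was 1.28 to 1.43% in WT, 1.20 to 1.40% in AmcKO, 1.86 to 1.96% in MUT and 1.78 to 2.0% in GcKO, and the MUT and GcKO libraries lay above all WT and AmcKO libraries, as for the mitochondrial set. No difference between both sets was tested.

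Some values are uncertain by position. Annotated exons of 21 of the 77 genes overlap a protein-coding neighbour, 18 on the opposite strand, among them Mrpl14 with Tmem63b, Mrpl27 with Eme1, Mrpl48 with Rab6a and Mrps30 with B430218F22Rik, and whether strand was used in counting is not given in the sources used here. The annotation also holds 5 pseudogenes named for members, of Mrpl23, Mrpl48 and Mrps36, whose reads could be divided between the copies.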

How the data were processed

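Oocyte RNA was amplified by Smart-seq2. The authors aligned reads to mm10 with TopHat2 2.0.13 and estimated expression with Cufflinks 2.2.1, and the deposited FPKM values, 1 column per library, were used as they stand. The tools listed with the samples also include Cuffnorm and Cuffdiff, without a version. The annotation they used and the use of strand are not given in the sources used here, and the labels name library kits that differ. The table also holds the authors' own fold changes, p-values and q-values, which were not used. The number of fragments per library is not given by FPKM. The relative FPKM of 1 fragment was read from the steps between low values, as the most frequent ratio to MUT replicate 2 among genes under 0.5 FPKM there.

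Groups came from the labels. The members and gene lists were chosen with earlier results of these data known. No source states that libraries of a group came from separate animals, so p-values measure the spread between these libraries, which may be technical. log2(FPKM + 1) was fitted with limma 3.58.1 in R 4.3.3, with a variance trend, for the 11233 genes that reached 1 FPKM in any library. The 12 libraries were fitted together with 8 residual degrees of freedom and 6 contrasts, and p-values were adjusted by Benjamini-Hochberg over all genes. Fold changes on this scale understate changes of scarce transcripts. Named were the 6 largest falls and 4 largest rises among called members in MUT and in GcKO against WT, the 3 largest falls and rises in other contrasts, the 5 most abundant members, the Mrps18 paralogs, Mrps36, Mrps30, Mrpl12, members near 0, Dpagt1 and up to 4 called genes of each list of mitochondrial translation. Cytosolic ribosomal proteins are given as counts. Members named beside these with exon overlaps or pseudogenes are given by position. Lists by symbol and promoters were read with Python 3.11.15, numpy 2.4.6 and pandas 2.3.3. On simulated data for MUT against WT, with 200 of 11233 genes changed, 173 were recovered (73% of 2-fold and 100% of 4-fold changes), and 7 unchanged genes were called. Scarce genes were left unchanged there, directions were random, noise was normal and no difference in FPKM sum between groups was built in. The simulation therefore does not give the accuracy of calls for scarce members or under the real difference in sums. Alternatives were another pseudocount, filter, scaling, variance model, set of libraries, length correction, replicate block and threshold.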

Additional observations from a re-analysis of the deposited data

How the results depend on the processing

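Calls among the 77 were 24 in MUT and 26 in GcKO against WT. Scaled to the same sum they were 39 in MUT, and after quantile normalization 14 and 5. Pairs in parentheses give all transcripts called lower and higher in the same setting. A fold change over 2 besides gave 13 in MUT (753 and 725) and 11 in GcKO (716 and 656). An adjusted p under 0.01 gave 15 (828 and 323) and 14 (860 and 287). With only both groups in the fit, GcKO had 15 (838 and 410). For GcKO against AmcKO, 8 calls (538 and 75) became 5 without a filter (450 and 70). At a mean FPKM of at least 5 there were 14 (747 and 146, of 4759), and under the same sum 23 (128 and 2478). There were 2 after quantile normalization (160 and 89) or without a variance trend (172 and 27). A fold change over 2 (224 and 40) or an adjusted p under 0.01 (207 and 7) also gave 2. With only both groups there were 0 (0 and 0). For MUT against AmcKO, 10 (570 and 159) became 16 at a mean FPKM of at least 5 (756 and 217, of 4759). Under the same sum there were 29 (165 and 2401), and after quantile normalization 5 (318 and 214). There were 2 without a variance trend (289 and 97) or at an adjusted p under 0.01 (244 and 22). With only both groups there were 4 (438 and 139), and at a fold change over 2 there was 1 (278 and 112). Leaving out 1 library gave 15 to 21 calls for MUT (926 to 1101 and 523 to 840) against WT. It gave 16 to 23 for GcKO (941 to 1324 and 409 to 949) and 0 to 1 for AmcKO (6 to 48 and 7 to 36) against WT. Against AmcKO it gave 2 to 11 for GcKO (229 to 654 and 23 to 98) and 2 to 12 for MUT (248 to 516 and 48 to 141). GcKO against MUT had 0 calls in all settings run (4 to 36 and 2 to 39). The cause of these shifts was not tested, apart from a stricter threshold or fewer libraries.

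Signs turned under the same sum in MUT against WT for Mrpl14 (0.37), Mrpl34 (0.25), Mrps21 (0.60), Mrpl32 (0.50), Mrps18a (0.17), Mrps18b (0.24) and Mrps36 (0.20), and in GcKO for Mrpl14 (0.29), Mrpl34 (0.46), Mrps21 (0.57), Mrpl32 (0.19), Mrps18a (0.11), Mrps18b (0.15), Mrps36 (0.13) and Mrpl12 (0.98), all log2 fold changes. After quantile normalization they turned in MUT for Mrpl14 (0.26), Mrpl34 (0.083), Mrps21 (0.48), Mrpl32 (0.35) and Mrps36 (0.094), and in GcKO for Mrpl14 (0.23), Mrpl34 (0.36), Mrps21 (0.46), Mrpl32 (0.038), Mrps36 (0.053) and Mrpl12 (0.52). Mrpl12 in GcKO also turned with the length correction (0.20), and with 1 library left out it ran from -0.237 to 0.113, turning without WT replicate 6 or GcKO replicate 3. Of 680 alternatives run for 40 values of named members, 516 kept direction and side of the threshold, 131 lost the call and 4 gained it. The large-to-small ratio without Mrps33, and with Mrps18a, Mrps30 and Mrps36 reassigned, and the abundance bands were chosen after seeing the data.

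Label numbers are shared by MUT with GcKO and by WT with AmcKO. Same-numbered libraries had correlations of deviations between -0.0413 and 0.0405, and libraries of different number between -0.057 and 0.0706. No pairing by number was thus seen in these values. Whether same-numbered libraries shared a day or a batch is not known from them, as most transcripts are scarce and their deviations noisy. With the numbers as a replicate block 0 members were called in GcKO against MUT and 0 in AmcKO against WT. Of all transcripts, 6 were then lower and 3 higher in GcKO against MUT, and 5 and 4 in AmcKO against WT. Scarce members are the least precise, most of all in WT, where 1 fragment is worth the most FPKM.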
